A study of Mus musculus with 14 samples.

Results

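Accessible chromatin was compared between liver metastasis cell lines of mouse small cell lung cancer that differ in Nfib genotype. The RPR2 side was 1 line, 1373M1, with 2 libraries. The RPR2;Nfibf/f side, written Nfibf/f below, was 2 lines, 1398M1 and 1399M4, with 2 libraries each. These 6 libraries were all those labelled liver metastasis among the 14 libraries of 7 lines in the series. The assay was ATAC-seq. Its transposase cuts and tags DNA that is not packed away, and the deposited values were the peaks called per library. RPR2 stands in this field for a mouse model in which Rb1, Trp53 and Rbl2 are deleted in the lung, so both sides carry those deletions, and Nfibf/f for a conditional (floxed) allele of Nfib. The labels give no animal age, no Cre, no deleted exons and no number of clones behind a line. Lines 1398M1 and 1398P2 share a leading number, as do 1399M4 and 1399P1, and whether lines with a shared number come from 1 animal is not given. The 8 libraries not from liver, of the RPR2 lymph node metastasis lines 12N1G and N2N1G and the Nfibf/f lung tumor lines 1398P2 and 1399P1, were used where lines from other sites were needed.

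NFIB belongs to the nuclear factor I family, transcription factors that bind TTGGC half-sites as dimers and act in lung and brain development. In small cell lung cancer, a neuroendocrine tumor that often spreads to the liver, Nfib is recurrently amplified and has been tied to widespread opening of distal chromatin and to metastasis. The title of the series asks which routes of metastasis depend on NFIB, and liver is the only site here at which both genotypes were sampled.

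The 6 libraries held 64975 to 77332 peaks, and the depth solved from the peak statistics (the floor of the local background) was 0.637 to 0.999 fragments per bp. The lowest pileup called at that floor was 4 or 5 fragments. The lung library 1398P2 replicate 2 stood apart, with 33519 peaks and a floor of 0.507. Of the markers set for the lines, 14 of the 14 neuroendocrine secretory and marker genes with an annotated start site in the RefSeq table, Chga, Syp and Dll3 among them, had a peak at a start site in all 6 liver libraries. Syt4, a list gene without an entry there, had no peak within 1 kb of either gene end in 1398M1. Of 8 neuroendocrine transcription factors with a start site in the table, 4 had a peak in all 6 and Nkx2-1 in none. Start sites of 8 of 9 hepatocyte genes, Alb and Apob included, had a peak in none of the 6, as had those of 7 of 7 lymphocyte and myeloid genes. For endothelial genes 5 of 8 had none, and Kdr and Flt1 had a peak in all 6.

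Peaks of the 6 libraries that overlapped by 1 bp were merged into 137444 regions on chromosomes 1 to 19 and X. A region counted as open in a line if a peak fell in it in each of the 2 libraries, and as closed if in neither. In 60919 regions at least 1 line had a peak in 1 library only, and the other 76525 could be assigned in all 3 lines. Of these, 29403 (38.4%) were open in all 3 lines. In 1373M1 alone 9511 regions were open, 12.4% of those assigned. In both Nfibf/f lines but not in 1373M1 4553 were open, or 5.95%. A region absent from a peak list may be open in fewer cells or less open in each, and peak lists do not separate these cases.

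Patterns of single Nfibf/f lines were as common as patterns that follow genotype. With 1 RPR2 liver line, the pattern of 1373M1 alone is also that of a single line. Line 1399M4 alone accounted for 15310 regions (20%) and 1398M1 alone for 7949 (10.4%). The Nfibf/f line 1398M1 shared 7875 regions with 1373M1 that were closed in 1399M4, more than the 4553 it shared with 1399M4 against 1373M1. The Jaccard index, the number of open regions shared by a pair of lines divided by the number open in either, was 0.522 for 1373M1 and 1398M1 and 0.436 for the 2 Nfibf/f lines. It was 0.39 for 1373M1 and 1399M4, while replicate libraries of a line reached 0.689 to 0.763. So 1398M1 lay nearer to the RPR2 line than to the other line of its own genotype. These counts were not tested between genotypes, since an exact permutation test of 1 line against 2 cannot go below p = 0.333. Without line 1398M1 the count of 1373M1 rose to 20099 and that of the other side to 22704, and without 1399M4 the latter was 14136. Leaving out replicate 2 of 1373M1 gave 14355 regions of 1373M1 alone.

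**Figure D1:**
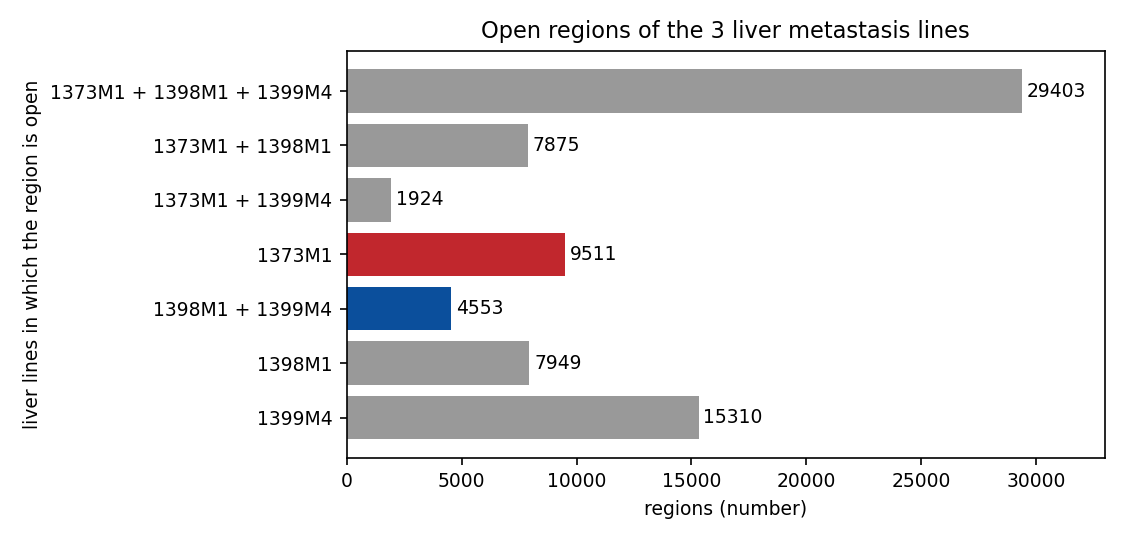
Number of regions (x axis) open in each combination of the 3 liver lines (y axis), among regions assigned in all 3. The red bar (1373M1 alone, 9511) and the blue bar (both Nfibf/f lines without 1373M1, 4553) are the genotype patterns, and the grey bar of 1399M4 alone (15310) is longer than either.

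The regions of 1373M1 alone were mostly distal. Their median width was 400 bp, 1.67% lay over a RefSeq start site, 3.91% lay within 1 kb of one, and the median distance to a start site was 29.3 kb. These values leave out chromosome 18, which the start-site table does not cover, and genes without an entry make shares too low and distances too long. Over all regions the median width was 435 bp, 9.36% lay over a start site and the median distance to one was 23 kb. A region joins the peaks of every library that holds it, so classes held by more libraries tend to be wider. The part of this in the widths and start-site shares was not tested. Regions of the Nfibf/f lines alone were 595 bp wide in the median, and 7.4% lay over a start site. Regions open in all 3 lines had a median width of 857 bp and 34.5% lay over a start site. Median summit pileups were 17 and 16 fragments in the 2 libraries of 1373M1 for its own regions, against 46 and 40 for those open in all 3 lines. In the Nfibf/f libraries the corresponding values were 15 to 24 for their own regions and 33 to 53 for shared ones. The regions of either side were thus weaker than those open in all 3 lines. Over all regions with a peak the medians were 23 and 22 in 1373M1, 19 and 21 in 1398M1 and 23 and 16 in 1399M4, so in 1399M4 the regions of the Nfibf/f side, at 24 and 16, were not below its usual peak.

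The lines from other sites carried part of this difference. Of the regions of 1373M1 alone, 40.6% were open in 12N1G and 41.8% in N2N1G, against 0.557% in 1398P2 and 18% in 1399P1. The mean share was 31.9 percentage points higher in the RPR2 lymph node lines (exact permutation p = 0.333, two-sided, the smallest that 2 lines against 2 allow). For regions of the Nfibf/f liver lines alone the shares were 30.3% in 12N1G, 32% in N2N1G, 36.7% in 1398P2 and 77.7% in 1399P1, a difference of -26 points (exact permutation p = 0.333). Without the shallow replicate 2 of 1398P2 these differences were 28.4 and -50.4 points. Genotype and tissue cannot be told apart in these 4 lines, and the number shared by lung and liver lines applies here too. Regions open in all 3 liver lines were open in 87% and 87.2% of cases in the lymph node lines and in 66.3% and 94.9% in the lung lines.

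**Figure D2:**
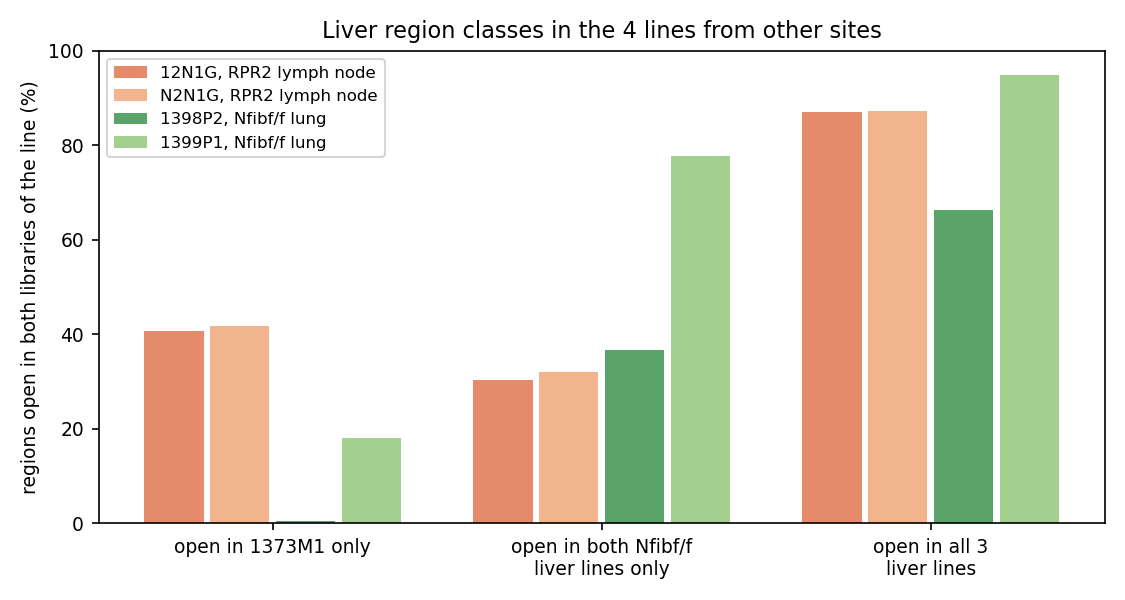
Share of regions (y axis, percent) open in both libraries of each of the 4 lines that were not from liver (bars, by color), for 3 classes of liver regions (x axis). Regions of 1373M1 alone were open in 40.6% and 41.8% of cases in the RPR2 lymph node lines and in at most 18% in the Nfibf/f lung lines.

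At the strict end, 1475 regions (15.5%) of 1373M1 alone had a peak in all 4 lymph node libraries and in none of the 4 lung libraries, and 759 (16.7%) of the Nfibf/f side had the reverse. A further 3357 regions of 1373M1 alone (35.3%) had a peak in none of the 8 libraries from other sites. On the Nfibf/f side, 181 regions (3.98%) were as isolated. These 2 shares do not compare the sides, since the rule asks for 1 line on the RPR2 side and for 2 on the other. Both Nfibf/f liver lines also share a leading number with a lung line. Another 494 regions (10.8%) of the Nfibf/f side had a peak in all 8 libraries from other sites, RPR2 lymph node lines included, so 1373M1 was the only line of 7 without them.

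The single regions were ranked by the authors' fold enrichment within each library, by the lowest rank among the libraries that held the region. On the RPR2 side the 5 highest included a region at chr1:137254894-137255500, 294446 bp from Nr5a2, the nearest protein-coding gene, with summit pileups of 72 and 50 fragments in 1373M1 and 19 to 34 in the 4 lymph node libraries. No Nfibf/f library, lung or liver, had a peak there. A region inside Rit2, a neuronal small GTPase, had 48 and 41 fragments in 1373M1, peaks in all 4 lymph node libraries and none in the 8 Nfibf/f libraries. A region inside Fmn2, an actin nucleator (chr1:174701899-174702304), had 40 and 47 fragments in 1373M1 and no peak in the other 12 libraries. The other 2 lay inside Dtwd2 and 24424 bp from Sh2d6. Both were called in all 4 lymph node libraries and also in 2 and 3 Nfibf/f lung libraries.

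On the Nfibf/f side the 5 highest regions were all called in all 4 lymph node libraries, so each was missing from 1373M1 and not from RPR2 lines at large. The region at Cdkn2b (chr4:89310341-89311254), which covers the start site of this inhibitor of cell cycle kinases, had 88 and 153 fragments in 1398M1 and 150 and 69 in 1399M4. It had 74 to 134 fragments in the lymph node libraries and no peak in 1373M1. The start sites of the neighboring Cdkn2a had peaks in 1 and in 2 of the 2 libraries of 1373M1, and in all 12 other libraries. The region over the start site of Fggy, a carbohydrate kinase (chr4:95557045-95557779), had 81 and 86 fragments in 1398M1 and 49 and 33 in 1399M4. The others lay near Kcnh8 and Glra1 and inside Hsf5.

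The targeted gene came first in the gene comparison. Nfib (chromosome 4, 82290173 to 82506751) held 17 and 15 regions in 1373M1, 11 and 12 in 1398M1 and 12 and 12 in 1399M4, counted within the gene and 10 kb either side. The libraries of 1373M1 lay above all 4 Nfibf/f liver libraries but overlapped with the Nfibf/f lung line 1399P1, which held 15 and 16. The lung line 1398P2 held 10 and 4, and the lymph node libraries 15 to 17. The share of all genes with such a gap in liver was not counted. The log2 difference, 1373M1 minus the Nfibf/f liver lines, was 0.53 ± 0.30 (SE; limma adjusted p = 0.447). Of its 26 regions 3 had a peak in all 14 libraries, among them the one over the upper end of the gene (82505267 to 82507353), and 3 inside the gene had a peak in all 6 RPR2 and none of the 8 Nfibf/f libraries. Another 2 (82427444 to 82428355 and 82497186 to 82497633) had a peak in all 4 Nfibf/f liver libraries alone. Peak lists do not show where reads are missing, so the deletion itself was not tested. Rbl2, targeted in both genotypes by the design of the model, had 2 and 2 regions in 1373M1, 3 and 5 in 1398M1 and 4 and 4 in 1399M4, and Trp53 2 or 3 in every liver library.

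The number of regions per gene was then compared across all protein-coding genes, with the spread taken from all 7 lines in 4 groups of genotype and tissue, since 1373M1 has no second line. The fit took the lines as independent, although 1398M1 and 1398P2, and 1399M4 and 1399P1, share a leading number. The values were log2 of the scaled number of regions per line plus 0.5, so differences of genes with few regions are understated. Of 6777 genes tested, limma called 4 with more regions in 1373M1 (0.059%) and 63 with more in the Nfibf/f lines (0.93%) at an adjusted p of 0.05. An unadjusted p under 0.05 was reached by 1020 genes, and the median difference of all genes tested was 0.04. The filter asked for a mean of 3 regions over 1 RPR2 and 2 Nfibf/f lines, so a gene near 0 in 1373M1 passed through the Nfibf/f side alone, while a gene near 0 in both Nfibf/f lines had to reach more regions in 1373M1. The 2 counts therefore do not compare the directions, and without the filter they were 1 and 31. Most of the 63 genes were lowest in 1373M1. In 59 of them, 1373M1 had fewer regions than each of the 6 other lines, against 6.39% of all genes tested, and in 10 neither library of 1373M1 had any. The choice of genes low in 1373M1 fixes much of the first count. The median number of regions over the 63 genes was 1 in 1373M1, 7 and 8.5 in the Nfibf/f liver lines, 5 and 4.5 in the lymph node lines and 4.5 and 7 in the lung lines. In 29 of the 63, all 3 RPR2 lines lay below all 4 Nfibf/f lines, against 8.54% of all genes tested, a count to which the choice also contributes. The sign of the lymph node minus lung difference matched that in liver in 42 of 63, against 65.2% of all genes with a negative difference. The numbers of called genes hung on the processing and on the lines that supplied the spread. They were 0 higher and 0 lower without scaling the number of regions per line (limma, 1006 at an unadjusted p under 0.05), 0 and 3 with equal numbers of peaks per library (limma, 306 at an unadjusted p under 0.05) and 1 and 24 at a -log10 q of at least 5. By line, they were 0 and 0 without 1399P1 (limma, 1012 at an unadjusted p under 0.05), 0 and 38 without 12N1G, 1 and 6 without 1398P2, 1 and 42 without N2N1G, 19 and 37 without 1398M1, 0 and 8 without 1399M4, and 0 and 6 without replicate 1 of 1398P2. The count of higher genes was 7 without replicate 1 of 1373M1 and 2 without replicate 1 of 12N1G, replicate 1 of 1399M4 or replicate 2 of 1399P1.

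Among genes with fewer regions in 1373M1, Rreb1, a zinc finger factor downstream of RAS (chromosome 13, 37778382 to 37952005), stood furthest out. It held 0 and 0 regions in 1373M1, 9 and 13 in 1398M1 and 23 and 22 in 1399M4. The lymph node libraries held 6 each and the lung libraries 5 to 18, so 1373M1 did not overlap with any line. The log2 difference was -4.87 ± 0.35 (SE; limma adjusted p = 0.00211). Set against a floor of 3 regions, the Nfibf/f mean was at least 5.58-fold higher. For the genes at 0 in both libraries of 1373M1 the fitted difference depends on the pseudocount and is no bound. Against the same floor the Nfibf/f mean was at least 2.42-fold higher in Vav3, Tmprss2 and Them7, 2.33-fold in Nhs and 1.92-fold in Ano2.

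Vav3, an exchange factor for small GTPases (chromosome 3, 109340465 to 109685694), held 0 and 0 regions in 1373M1, 6 and 7 in 1398M1 and 9 and 7 in 1399M4, and 3 or 4 in the lymph node libraries (-3.80 ± 0.23, limma adjusted p = 0.00211). Tmprss2, a membrane serine protease (chromosome 16, 97564682 to 97659541), held 0 and 0, 6 and 6, and 8 and 9 regions in the same order, and 3 or 4 in the lymph node libraries (-3.78 ± 0.28, limma adjusted p = 0.00211). In Vav3, Rreb1 and Tmprss2 the 4 lymph node libraries lay between 1373M1 and the Nfibf/f liver libraries. Thrb, the beta receptor for thyroid hormone (chromosome 14, 17659225 to 18040097), did the same, with 1 and 1 regions in 1373M1, 7 and 15 in 1398M1, 13 and 13 in 1399M4 and 2 to 4 in the lymph node libraries (-2.93 ± 0.25, limma adjusted p = 0.00354).

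In Frmpd4, a scaffold of dendritic spines, 1 and 0 regions in 1373M1 faced 9 to 15 in the Nfibf/f liver libraries and 5 to 7 in the lymph node libraries (-3.41 ± 0.27, limma adjusted p = 0.00296). Klhl32, of the kelch family, held 1 and 1 regions in 1373M1, 6 to 11 in the Nfibf/f liver libraries and 4 or 5 in the lymph node libraries (-2.57 ± 0.21, limma adjusted p = 0.00308).

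In other genes the RPR2 lymph node libraries overlapped with the Nfibf/f liver libraries. Agbl4, a carboxypeptidase that trims glutamate chains from tubulin (chromosome 4, 110397649 to 111664324), held 1 and 1 regions in 1373M1, 14 and 19 in 1398M1, 19 and 18 in 1399M4 and 17 to 21 in the lymph node libraries (-3.46 ± 0.24, limma adjusted p = 0.00211). Lrfn2, a synaptic adhesion molecule (chromosome 17, 48931590 to 49097591), held 0 and 1 in 1373M1, 6 and 8 in 1398M1, 8 and 6 in 1399M4 and 6 or 7 in the lymph node libraries (-2.78 ± 0.19, limma adjusted p = 0.00211). Nhs, Them7 and Ano2, a calcium-activated chloride channel, showed the same picture, with no region in 1373M1 and 4 to 6 in each lymph node library.

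Genes with more regions in 1373M1 were few and 3 of the 4 lay where the local background was raised. Bmp8a, a bone morphogenetic protein (chromosome 4, 123312645 to 123343252), held 15 and 14 regions in 1373M1, 4 and 5 in 1398M1, 5 and 5 in 1399M4 and 6 in each lymph node library (1.61 ± 0.25, limma adjusted p = 0.0345). Pabpc4, a poly(A)-binding protein beside it (chromosome 4, 123282303 to 123298925), held 8 and 8 regions in 1373M1, 2 and 2 in 1398M1 and 3 and 2 in 1399M4 (1.72 ± 0.21, limma adjusted p = 0.0159). The 1 Mb bin that holds both had a local background 27.1 and 34.4 times the floor in 1373M1, against 1.26 and 1.47 times in 1398M1 and 6.08 and 4.68 times in 1399M4. Tle6, of the Groucho corepressor family (chromosome 10, 81590904 to 81601185), held 8 and 7 regions in 1373M1 and 3 or 4 in the Nfibf/f liver libraries (1.19 ± 0.19, limma adjusted p = 0.0411). Its bin stood at 3.49 and 3.14 times the floor in 1373M1 and at 1.76 to 2.04 times in the Nfibf/f liver libraries. All regions of the 3 genes lay in bins of raised background, 10 for Pabpc4, 16 for Bmp8a and 9 for Tle6. The part of the background in these calls was not tested, since no region was left outside such bins.

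Nxf3, of the nuclear RNA export family on the X chromosome (136071523 to 136139579), held 7 and 8 regions in 1373M1, 3 and 3 in 1398M1, 3 and 2 in 1399M4 and 3 or 4 in the lymph node libraries (1.39 ± 0.23, limma adjusted p = 0.0413). None of its regions lay in a bin of raised background. The next 8 genes by p did not pass. Eya4, a phosphatase and transcriptional coactivator, held 10 and 8 regions in 1373M1 and 1 in each Nfibf/f liver library (2.72 ± 0.53, limma adjusted p = 0.0816). Gpc3, a cell surface proteoglycan, held 10 and 11 against 3 to 6. Bag3, a co-chaperone, Otog, Plbd2 and Lrrn2 had differences of 0.97 to 1.33. Each of the 21 called genes that the rule for genes and lists selects lost its call in 2 to 17 of the alternatives that tested it, Lrfn2 in the fewest and Nxf3 and Epc2 in the most.

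**Figure D3:**
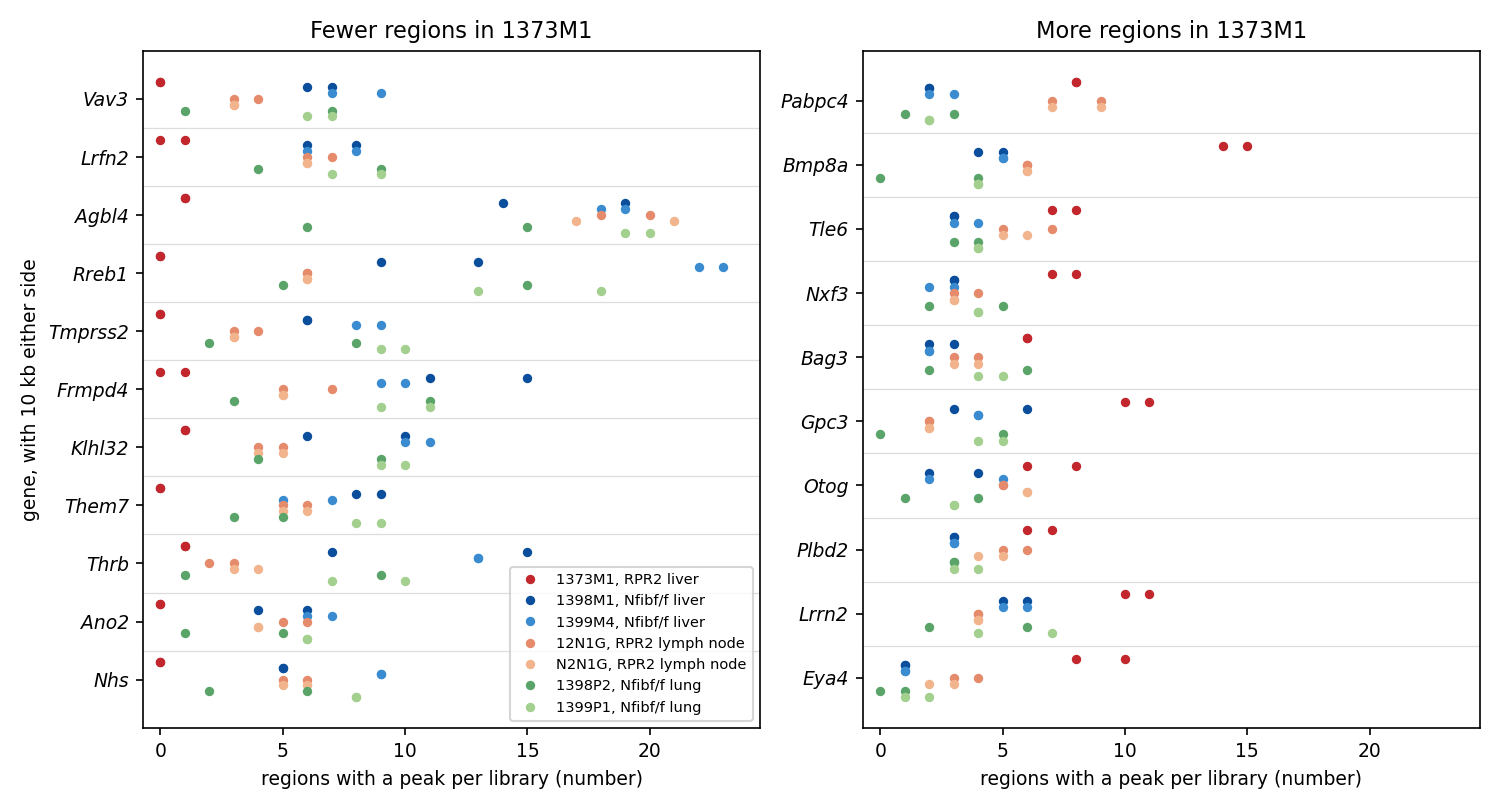
Regions with a peak per library (x axis, number) in the gene and 10 kb either side, for genes among the 12 of smallest p in each direction (y axis), with 1 point per library and 1 color per line. In the left panel the red points of 1373M1 lie at 0 or 1, and in the right panel the first 4 genes passed the adjusted threshold.

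The genes with the most regions of 1373M1 alone held a small part of the 9511. Tenm2, a teneurin that joins synapses, held 16 of them, and Adamtsl1, Gse1 and Magi1 15 each, and Lsamp, a neural adhesion molecule, 13. Magi1, a scaffold of cell junctions, held 25 and 24 regions in 1373M1, 7 and 8 in 1398M1, 12 and 11 in 1399M4 and 18 or 19 in the lymph node libraries (1.45 ± 0.55, limma adjusted p = 0.281). Of the Nfibf/f lung lines, 1399P1 held 19 and 14 regions of Magi1 and 1398P2 held 7 and 1. None of these 5 genes passed the test, and the difference between 1398M1 and 1399M4 was wide in Adamtsl1, with 3 and 4 regions against 18 and 18. On the Nfibf/f side Aff3, Fat3 and Stard13 held 7 such regions each, and Asic2 and Cobl 6. Fat3, an atypical cadherin, held 8 and 9 regions in 1373M1, 26 and 24 in 1398M1, 29 and 31 in 1399M4 and 10 to 13 in the lymph node libraries (-1.52 ± 0.21, limma adjusted p = 0.0218). Cobl, an actin nucleator, held 2 and 2 in 1373M1, 11 to 18 in the Nfibf/f liver libraries and 10 to 12 in the lymph node libraries (-2.55 ± 0.27, limma adjusted p = 0.00805). Stard13 and Asic2 did not pass (limma adjusted p = 0.0874 and 0.488). Aff3 also held 4 regions of 1373M1 alone, and its difference was -0.25 (limma adjusted p = 0.621).

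Gene lists of the pathways of this cancer held few called members. Of 23 lists with 342 genes, 4 had a called member, each 1 gene with fewer regions in 1373M1, and no member was called higher. Among axon guidance and neuronal migration genes, 28 of 32 were tested, 1 was called, and 18 differences were positive with a median of 0.27, beside 3685 of 6777 positive and a median of 0.04 over all genes. The called member was Sema5a, a guidance semaphorin, with 1 and 0 regions in 1373M1, 5 and 9 in 1398M1, 20 and 18 in 1399M4 and 5 to 7 in the lymph node libraries (-3.47 ± 0.46, limma adjusted p = 0.0204). Dcx, which binds microtubules in neurons on the move, held 7 and 8 regions in 1373M1, 3 and 3 in 1398M1, 3 and 2 in 1399M4 and 5 or 6 in the lymph node libraries, and did not pass (1.39 ± 0.38, limma adjusted p = 0.177).

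Synaptic adhesion genes had the highest list median, 0.68, with 12 of 14 tested members positive and none called. Tenm3, a teneurin, held 19 and 16 regions in 1373M1 and 4 or 5 in the Nfibf/f liver libraries (2.02 ± 0.57, limma adjusted p = 0.189). Adgrl3, a latrophilin that binds teneurins, held 13 and 12 against 2 to 5 (1.73 ± 0.67, limma adjusted p = 0.289). In both genes the liver groups did not overlap, and the lymph node libraries lay between them, at 10 to 12 for Tenm3 and 6 or 7 for Adgrl3. The Nfibf/f lung line 1399P1 lay between them too, with 7 and 8 for Tenm3 and 6 and 7 for Adgrl3. The lung line 1398P2 held at most 2. Line 1373M1 lay above all 6 other lines in 17.2% of all genes tested, these genes among them. The share of all genes in which the liver groups do not overlap was not counted. Of 16 glutamate and GABA receptor genes tested 10 were positive, with a median of 0.39.

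In the WNT list 9 of 12 tested members were positive (median 0.47), and the called gene went the other way. Ror2, a receptor tyrosine kinase for WNT5A, held 2 and 2 regions in 1373M1, 9 and 8 in 1398M1, 11 and 11 in 1399M4 and 4 to 6 in the lymph node libraries (-1.91 ± 0.23, limma adjusted p = 0.0145). Among histone modifier genes, with a median of -0.09 over 13 members, Epc2, of a histone acetyltransferase complex, held 1 and 1 regions in 1373M1, 5 and 5 in 1398M1, 6 and 4 in 1399M4 and 1 in each lymph node library (-1.76 ± 0.29, limma adjusted p = 0.0471). Epc2 thus had the same low number in all 6 RPR2 libraries.

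No member of the remaining lists was called. Neuroendocrine transcription factors had 7 of 9 differences positive and a median of 0.14. Neuroendocrine secretory genes had 2 of 7 positive (median -0.15), with Pcsk2, a prohormone convertase, at -0.33 and Syt1, a vesicle calcium sensor, at -0.30. Proneural factors had 3 of 4 positive with a median of 0.035, which turned to -0.06 without scaling, with Myt1l at 0.61 and Sox1 at -0.45. All 4 NFI family genes were positive, with a median of 0.49, Nfic being 0.52 ± 0.19 (limma adjusted p = 0.267), and none turned sign without scaling. All 11 regions of Nfic lay in bins of raised background. Mycl, the only MYC family member tested, was at -0.05, and all 5 of its regions lay in the raised bins of chromosome 4.

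Cadherin and epithelial-mesenchymal genes had 4 of 9 positive (median -0.09). Cdh1, the epithelial cadherin, held 6 and 5 regions in 1373M1, 7 and 10 in 1398M1 and 11 and 11 in 1399M4 (-0.66 ± 0.25, limma adjusted p = 0.288), and Snai1, a repressor of Cdh1, 5 and 5 against 2 or 3 (0.85 ± 0.45, limma adjusted p = 0.422). Integrin and laminin genes had 10 of 17 positive (median 0.11, from -0.75 in Itgb3 to 1.02 in Lamb3). Collagen genes had 7 of 9 positive (median 0.35), with Col27a1 at 1.44 and Col13a1 at 1.10. NOTCH genes had 7 of 13 positive with a median of 0.01, or -0.08 without scaling, with Heyl at 0.89 in the raised background of chromosome 4 and Maml2 at -0.85. YAP, TEAD and REST genes had 4 of 4 positive (median 0.48, Tead4 0.91, Lats2 0.55), tuft-like genes 1 of 6 (median -0.14, Ptgs1 -0.77, Avil -0.65) and MHC class I genes 3 of 6 (median -0.02, Nlrc5 0.59, H2-D1 -0.41). The marker lists of other cell types had medians of 0.04 for hepatocytes (3 tested, -0.06 without scaling), 0.36 for endothelium (5 tested), 0.15 for lymphocytes and myeloid cells (2 tested) and -0.23 for lung epithelium (4 tested). For fibroblasts only Pdgfrb was tested, at 0.45. Summed over the list, hepatocyte markers held 16 and 14 regions in 1373M1 and 17 to 24 in the Nfibf/f liver libraries, and endothelial markers 58 and 50 against 44 to 58. Their part in the results was not tested. Setting genes without any region on a side at a floor of 3 regions left every list median as it was, to 2 decimals. Without scaling each list median was lower by about 0.1, and no other list median changed sign.

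**Figure D4:**
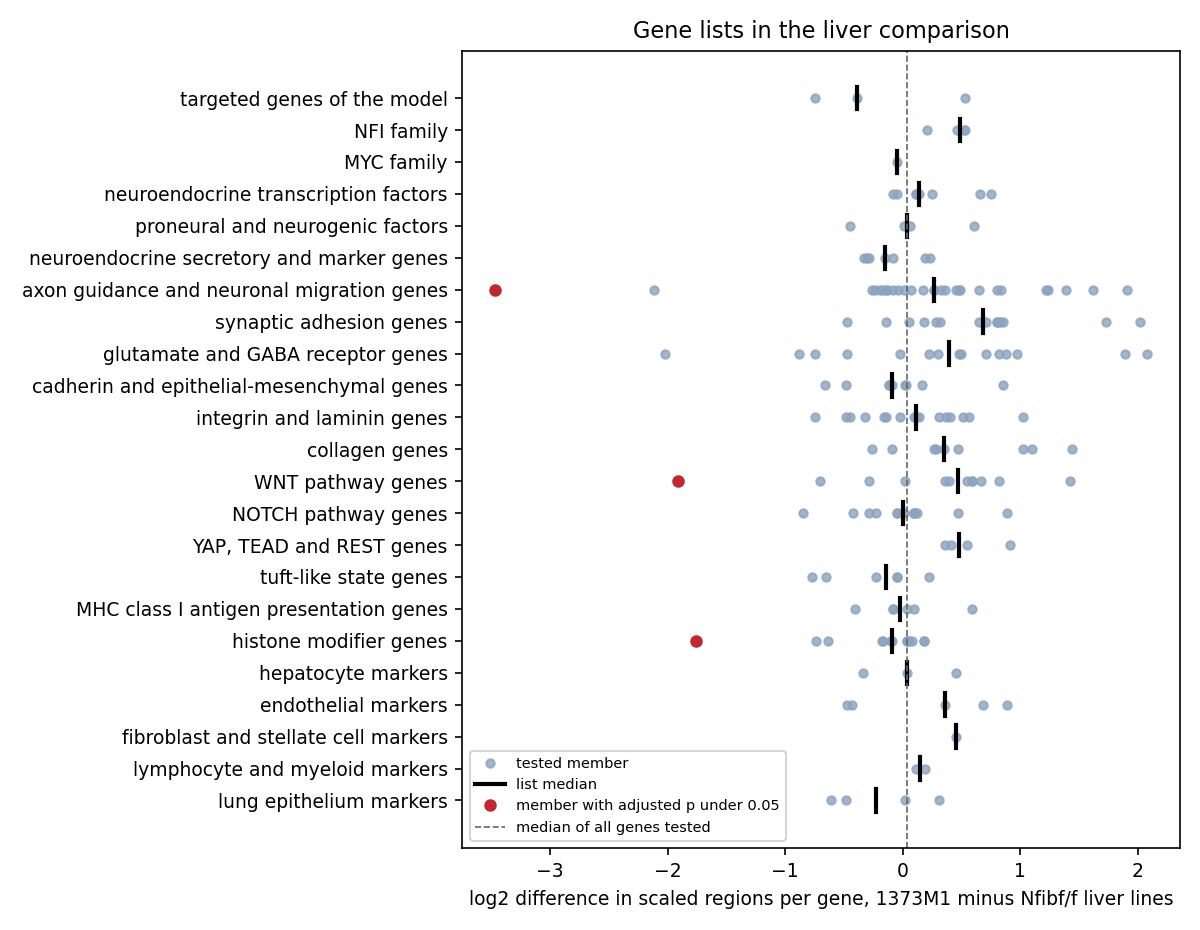
Log2 difference in scaled regions per gene, 1373M1 minus Nfibf/f liver lines (x axis), of tested members of 23 gene lists (y axis), with list medians as black ticks and the median of all genes as a dashed line. The 3 members shown that passed the adjusted threshold (red) all lie to the left, between -3.47 and -1.76.

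Start sites were compared next. The RefSeq promoter table of GRCm38.p6 gave 32619 start sites, as windows from 250 bases before to 50 after the start, and 12448 of them had a peak in all 6 liver libraries. Of the 16715 with a peak in any of the 6, 233 (1.39%), in 212 genes, had one in both libraries of 1373M1 and none of the 4 Nfibf/f libraries. The reverse held for 390 (2.33%), in 362 genes. Without replicate 2 of 1373M1 the former count was 361. Of the 233, 101 (43.3%) had a peak in all 4 lymph node libraries and 4 (1.72%) in all 4 lung libraries. Of the 390, 216 (55.4%) had a peak in all 4 lymph node libraries and 185 (47.4%) in all 4 lung libraries. Over all start sites the shares were 43.1% and 35.8%, and over those with a peak in all 6 liver libraries 97.8% and 88.1%. Most start sites missing from 1373M1 were thus open in both other RPR2 lines.

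List genes on the side of 1373M1 were Dcx, Cntn4, a contactin of axons, and Lrrtm4, a synaptic adhesion molecule. Both start sites of Dcx had a peak in both libraries of 1373M1, all 4 lymph node libraries and none of the 8 Nfibf/f libraries. At Lrrtm4 (chromosome 6, window from 80019393 to 80019692) a peak was present in both libraries of 1373M1, 3 lymph node libraries and no lung library, and at Cntn4 (chromosome 6, window from 106118692 to 106118991) in 2 lymph node libraries and 1 lung library. On the Nfibf/f side, Ror2, Nrxn3, Foxa2, Col18a1 and Pou3f4, a POU factor of neural lineages, had a start site with a peak in all 4 Nfibf/f liver libraries and neither of 1373M1. Those of Ror2, Nrxn3 and Foxa2 had peaks in all 4 lymph node and all 4 lung libraries as well, so 1373M1 stood alone. For Foxa2, a forkhead factor of endoderm, the other 2 start sites had a peak in all 6 liver libraries. The Pou3f4 site had peaks in 2 lymph node and 3 lung libraries, and the Col18a1 site in 4 and 3. For list genes without an entry in the promoter table, peaks within 1 kb of either gene end were used. There Cdh1 had none in 1373M1 and at least 1 in each of the other 12 libraries, and no gene showed the reverse.

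The 250 bases before the start of 4 of these genes are shown, since 1373M1 and the Nfibf/f liver lines differed there in every library. They are read 5′ to 3′ on the strand of the gene, from RefSeq (GRCm38.p6), with TTGGC half-sites of nuclear factor I and their reverse complement GCCAA in capitals. Dcx (chrX:143933220-143933469, minus strand) was open in 1373M1, and Pou3f4 (chrX:110814129-110814378, plus strand), Ror2 (chr13:53286125-53286374, minus strand) and Nrxn3 (chr12:89812233-89812482, plus strand) in the Nfibf/f lines.
Dcx: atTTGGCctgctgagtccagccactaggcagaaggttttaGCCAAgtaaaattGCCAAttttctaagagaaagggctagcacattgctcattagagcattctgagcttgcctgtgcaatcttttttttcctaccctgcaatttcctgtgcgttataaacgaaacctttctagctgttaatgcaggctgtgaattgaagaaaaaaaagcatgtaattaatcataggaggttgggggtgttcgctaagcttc
Pou3f4: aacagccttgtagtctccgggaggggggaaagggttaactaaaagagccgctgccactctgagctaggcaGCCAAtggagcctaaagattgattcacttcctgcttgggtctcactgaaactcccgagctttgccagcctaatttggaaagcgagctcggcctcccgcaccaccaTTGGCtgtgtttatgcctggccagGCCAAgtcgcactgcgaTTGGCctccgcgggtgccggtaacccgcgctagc
Ror2: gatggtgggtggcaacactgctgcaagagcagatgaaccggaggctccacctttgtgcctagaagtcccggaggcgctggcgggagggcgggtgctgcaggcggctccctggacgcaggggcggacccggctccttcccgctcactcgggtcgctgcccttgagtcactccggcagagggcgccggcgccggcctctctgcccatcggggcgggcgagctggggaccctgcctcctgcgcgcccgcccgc
Nrxn3: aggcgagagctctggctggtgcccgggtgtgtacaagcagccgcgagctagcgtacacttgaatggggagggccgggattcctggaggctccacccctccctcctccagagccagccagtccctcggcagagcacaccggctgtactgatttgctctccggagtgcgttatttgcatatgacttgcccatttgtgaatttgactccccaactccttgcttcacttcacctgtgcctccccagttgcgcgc
The printed Dcx stretch held 3 half-sites and that of Pou3f4 4, on opposite sides of the comparison, and Ror2 and Nrxn3 held none. The stretch before the other Dcx start site (chrX:143933125-143933374) overlaps the printed one, was also open in 1373M1 and held 0. The Dcx stretch was poor in CpG, with 3, and that of Ror2 rich, with 24.

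CpG content differed between the classes. Windows with 10 or more CpG made up 27.9% of the 233 start sites of 1373M1 alone, 62.1% of the 390 of the Nfibf/f lines alone, 90.7% of those open in all 6 libraries and 43.8% of all 32619. Motifs were searched on both strands of the 300-base window. Overlapping windows of a gene and near-identical gene copies were each counted, so the windows of a class are not all separate sequences. TTGGC was found in 57.9% of the windows of 1373M1 alone, 40% of those of the Nfibf/f lines, 49.9% of those open in all 6 libraries and 46.9% of all. Among windows with under 10 CpG the shares were 61.3%, 39.9%, 53.5% and 45.1%, in the same order. Among those with 10 or more CpG they were 49.2%, 40.1%, 49.6% and 49.2%, so 1373M1 alone did not exceed all start sites there. The longer TTGGCA, which overlaps TTGGC by definition, was in 23.2%, 10%, 10% and 14.1%, and among windows with under 10 CpG in 26.2%, 16.2%, 17.8% and 17.4%. With 10 or more CpG the TTGGCA shares were 15.4%, 6.2%, 9.23% and 9.84%. A pair of half-sites facing each other over 5 bases, the full palindrome of the family, occurred in 2 of the 233 windows, none of the 390 and 51 of all. The E-box CAGCTG was in 25.3%, 18.2%, 14.8% and 16.4%, and the AP-1 site TGANTCA in 14.2%, 9.74%, 4.78% and 9.3%. Among windows with under 10 CpG the E-box shares were 28%, 26.4%, 23.6% and 17.8% and the AP-1 shares 15.5%, 12.2%, 10.1% and 12.8%, so the E-box differed little between the sides there. These shares describe letters in a window and no binding was measured. The distal regions, which make up most of both classes, were not searched, as only start-site sequence was at hand.

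Peaks were also missing over long stretches, which were looked for after the values had been seen, as unbroken runs of regions without a peak on one side, ranked by the regions open on the other. On chromosome 17, 590 kb (48483301 to 49072987, with Unc5cl and most of Lrfn2) had no peak in 1373M1 and 20 to 28 regions with a peak in each Nfibf/f liver library. The lymph node libraries had 15 to 17 there and the lung libraries 13 to 25. Over Rreb1 263 kb (37686281 to 37948970 on chromosome 13) were empty in 1373M1 and held 11 to 26 in the Nfibf/f liver libraries and 8 in each lymph node library. Further such stretches lay over Cobl and Fstl4 (chromosome 11, 310 and 462 kb), Agbl4 and Bend5 (chromosome 4, 1211 kb), Kazn (chromosome 4, 912 kb), Tmem132d and Fzd10 (chromosome 5, 773 kb) and Scnn1g and Scnn1b, both sodium channel subunits (chromosome 7, 139 kb). In each of these 8 stretches all 12 libraries other than 1373M1 had peaks, so only 1373M1 lacked peaks entirely. The stretches were chosen for having no peak in 1373M1. Lower numbers in the lymph node than in the Nfibf/f liver libraries, as over Rreb1, were not tested. Whether reads were absent there was not tested, as a peak list gives no background where no peak was called.

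The gaps on chromosome 4 between 121582388 and 122706429 differed from these. All 4 runs had no peak in 1373M1 and none in the 4 lung libraries, while the Nfibf/f liver and lymph node libraries held 11 to 91 regions each per run. They lie in bins of raised background. In the bin from 121 to 122 Mb the background was at most 1.19 times the floor in 1373M1 and 1.26 to 2.51 times in the Nfibf/f liver libraries. In the next bin all 6 liver libraries stood at 10.0 to 21.1 times. In the bin after it 1373M1 stood highest, as given above for Bmp8a. How much of the difference in peaks there follows the background was not tested.

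The reverse stretches, with no peak in the 4 Nfibf/f liver libraries, held fewer regions. The first, 551 kb on chromosome 14 (35502929 to 36053713) that reaches into Grid1, a receptor of the glutamate family, had 12 and 11 regions with a peak in 1373M1, 5 to 7 in the lymph node libraries and 0 to 2 in the lung libraries. Within Magi1 146 kb had 8 and 8 in 1373M1, 6 or 7 in the lymph node libraries and 0 to 3 in the lung libraries. A run of 549 kb on the X chromosome (54385381 to 54934570) had 18 and 13 in 1373M1 and none in the other 12 libraries, and one of 552 kb over the Rhox homeobox cluster had 13 and 13 in 1373M1 and 0 to 3 in the lymph node libraries. The Rhox genes and the Gm genes of the other X run are near-identical copies, so peaks there are uncertain.

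**Figure D5:**
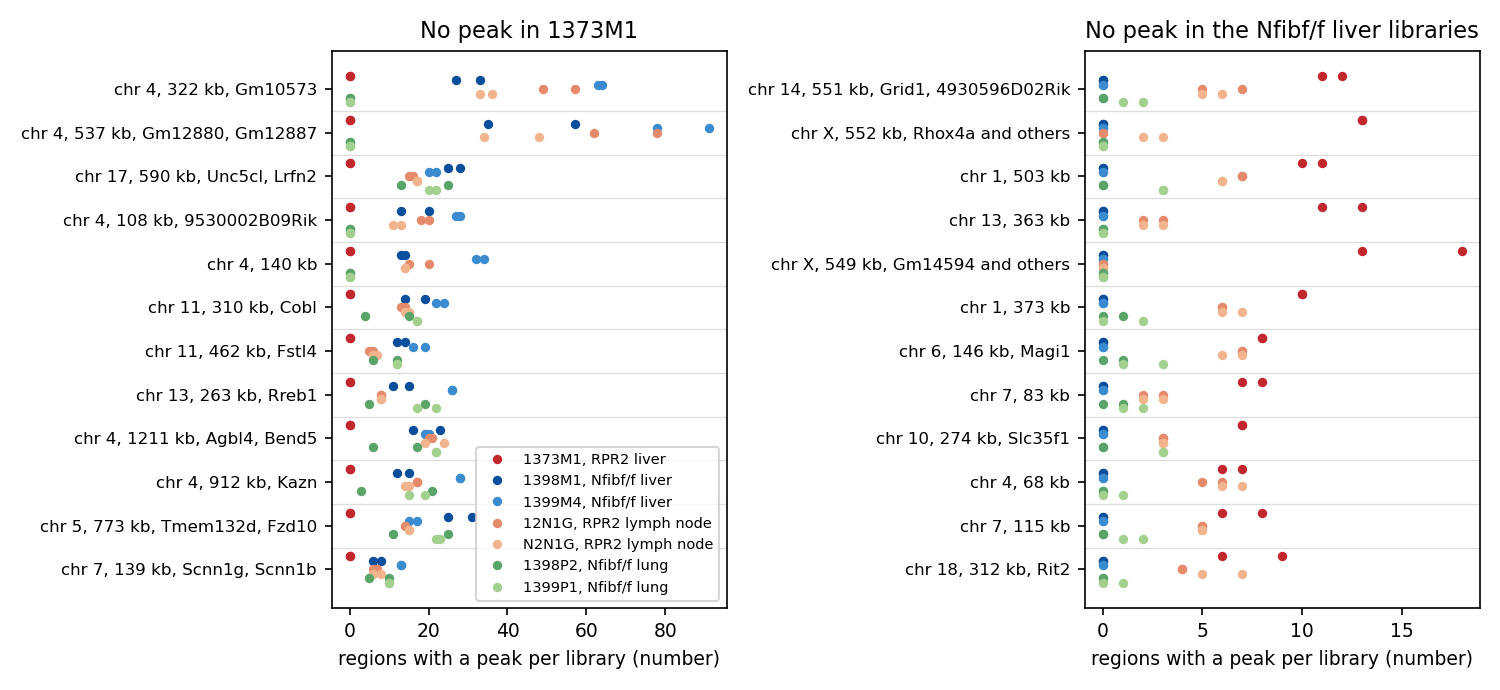
Regions with a peak per library (x axis, number) in the 12 stretches of each kind with the most regions open on the other side (y axis, chromosome, length and genes), with 1 point per library and 1 color per line. In the left panel 8 stretches have peaks in all lines but 1373M1, and the 4 others, all on chromosome 4, also have none in the lung lines.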

How the data were processed

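For each of the 14 ATAC-seq libraries the authors deposited its own narrowPeak list. The tools named by the submitters' processing notes are MACS2, Bowtie2, SAMtools, Picard and cutadapt 2.10, with mm10 and GRCm38 as builds. Settings and read shifts were not given in the sources used here. As a ratio over the local background, the authors deposited a fold enrichment per summit. The authors also deposited the -log10 p-value and the -log10 q-value of each summit, with a lowest -log10 q of 1.30 in the lists. The offset of the summit within the peak, also deposited by the authors, served to place it. Coordinates are 1-based on GRCm38.

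Pileup and local background at a summit were solved from fold and p, taking p as the Poisson tail that MACS2 computes, and the most frequent background of a library, its floor, stood for depth. Bins of 1 Mb were called raised where the 10th percentile of the background was at least 2 times the floor in both libraries of a liver line. Genes came from RefSeq (GRCm38.p6), which gave extents without exons. Protein-coding genes averaging 3 or more regions across the liver lines were tested with limma (3.58.1, R 4.3.3, trended empirical Bayes, 3 residual degrees of freedom) and Benjamini-Hochberg adjustment, each line being the mean of its 2 libraries after scaling to equal totals. Whether libraries of 1 line came from separate cultures is not in the labels, and their spread may be technical. The scripts were tested on simulated data.

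Members, gene lists and tests were chosen with earlier results of these data known. Named were the 12 genes of smallest p in each direction, the 5 with the most regions of one side alone, of each list the called members or otherwise the 2 with the largest difference, list genes with a start site or gene end open on one side alone, and the 5 highest-ranked single regions per direction. A few genes that this rule selects are not reported here. The other genes and stretches were named after their values were seen. Alternatives were tried for the q threshold, overlap, number of peaks, raised bins, pseudocount, filter, scaling, gene window, lines and libraries.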

Additional observations from a re-analysis of the deposited data

Results flagged for a closer look

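Peaks on chromosome Y were not part of the comparison and were present in every liver library. There were 40 and 34 in 1373M1, 33 and 31 in 1398M1 and 39 and 51 in 1399M4, all above a limit of 3.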

How the results depend on the processing

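The 3 Jaccard indices moved by less than the spread between libraries under a stricter q and with equal numbers of peaks. Leaving out single libraries, or using replicate 1 or 2 of each line alone, gave 9892 to 17842 regions of 1373M1 alone and 5080 to 9804 of the Nfibf/f lines alone. Without line 1398M1 the counts were 20099 and 22704, and without 1399M4 the second was 14136. The difference in share open in the other lines was 28.4 to 35.1 points and -50.4 to -22.8 points. Start sites of 1373M1 alone numbered 242 to 361 (alternatives added after the data were seen). Genes called higher and lower in 1373M1 numbered 0 to 7 and 6 to 80 without single libraries, 7 and 60 with a pseudocount of 1, 1 and 31 without a filter, 0 and 0 without scaling (1006 at an unadjusted p under 0.05), 2 and 42 in gene bodies, 8 and 65 over regions of all 14 libraries, 62 and 158 with the 3 liver lines alone, with the spread of 1398M1 and 1399M4 alone, 1 and 24 at a -log10 q of 5, 0 and 3 with equal peaks (2475 genes tested) and 1 and 60 without raised bins. By line left out they were 0 and 38 (12N1G), 19 and 37 (1398M1), 1 and 6 (1398P2), 0 and 8 (1399M4), 0 and 0 (1399P1, 1012 at an unadjusted p under 0.05) and 1 and 42 (N2N1G). The cause of these moves was not tested. Replicate numbers did not pair the libraries (correlations of deviations -0.0134 to 0.0164), and the fit with a replicate block called 32 and 103 genes. Among 72 named genes, differences changed sign in Asic2 (0.32) and Erg (-0.33) with equal peaks, in Mycl without line 1398M1 (0.15) and in Onecut2 without 1399M4 (-0.07). Mycl stood at -0.1 to 0 without single libraries. Regions with few fragments near the lowest called pileup of 4 or 5 limit what counts as closed.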

Other observations

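Regions of 1373M1 alone were unevenly spread over the chromosomes. They made up 18.5% of the assigned regions on the X chromosome (303 of 1641), 16.2% on chromosome 10 and 7.94% on chromosome 19, against 12.4% over all. Regions of the Nfibf/f lines alone made up 8.28% on chromosome 19, 4.03% on chromosome 10 and 5% on the X chromosome. The 1 Mb bin with the most regions of 1373M1 alone outside raised background was on chromosome 4, from 125000001 to 126000000, with 28 of 57 assigned regions. It holds Grik3, a kainate receptor subunit with 17 and 17 regions in 1373M1, 9 and 9 in 1398M1, 1 and 2 in 1399M4 and 16 or 17 in the lymph node libraries (limma adjusted p = 0.271). The corresponding bin of the Nfibf/f side was that of Rreb1 on chromosome 13, with 16 of 40.

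Among the 29 called genes in which all 3 RPR2 lines lay below all 4 Nfibf/f lines were Runx2, a factor of bone formation, Bmp6, a bone morphogenetic protein, Tshz3 and Krt7, a keratin of simple epithelia. Krt7 held 2 and 2 regions in 1373M1, 2 to 4 in the lymph node libraries, 6 to 8 in the Nfibf/f liver libraries and 3 to 8 in the lung libraries (-1.52 ± 0.24, limma adjusted p = 0.0363). Il16, a cytokine precursor, held 0 and 0 in 1373M1, 1 or 2 in the lymph node libraries and 4 to 7 in the Nfibf/f liver libraries, at least 1.83-fold above a floor of 3 regions (limma adjusted p = 0.0109). These 4 genes and Il16 were named after their values were seen.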
